A study of Homo sapiens with 15 samples.

Results

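The genes described here are the 9 genes of plasminogen activation and blood coagulation SERPINE2, PLAU, PLAUR, PLAT, TFPI, TFPI2, F3, THBD and THBS1. They were picked by gene symbol from the 43388 genes of the count files, and each was found once. RNA was sequenced from A549, an established human lung adenocarcinoma cell line with epithelial features and no engineered change (labelled WT). Cells spent 72 hours in 95% oxygen (hyperoxia) or 21% oxygen (normoxia). At each oxygen level, 3 libraries came from cells given 1e-05 mM ATRA (all-trans retinoic acid, the active form of vitamin A), 2 from cells given the ethanol vehicle and 2 from cells labelled with neither, here called untreated. The ATRA or vehicle was given for 24 hours according to the treatment protocol, before the oxygen exposure. The labels do not say whether the libraries of a group came from separate cultures, so p-values measure the spread between these libraries, which may be technical. A single tumour-derived line stands for the lung epithelium in all 6 groups. A further library is titled as hyperoxia, but its treatment label names adipogenic differentiation, and it entered no comparison.

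Plasmin is the protease that dissolves fibrin and cleaves matrix proteins. It is made from plasminogen by the urokinase-type activator (PLAU), which acts at the cell surface on its receptor (PLAUR), and by the tissue-type activator (PLAT), and both activators are blocked by serpins. Coagulation starts when tissue factor (F3) binds factor VIIa, and it is restrained by tissue factor pathway inhibitor (TFPI) and by thrombomodulin (THBD), which turns thrombin towards activation of protein C. In injured lungs, fibrin builds up in the airspaces when clotting outweighs its removal, and epithelial cells can make many of these proteins.

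The libraries held between 2642377 and 5605072 counts on genes, and 3 counts, taken as the limit of detection, corresponded to 0.530 to 1.15 CPM (a gene's count relative to its library's total after TMM normalization). These limits cover counting error only. Hyperoxia, untreated replicate 1 stood apart from the rest: 12657 genes had a count in it, 3105 of the 15339 genes tested over 14 libraries were at 0 against 72 to 675 in the others, and its highest correlation with any other library was 0.842. The calls in untreated cells are given with and without it. Of the epithelial markers, KRT8, KRT18 and KRT7 were abundant in all 14 libraries, while EPCAM stayed between 0 and 4.80 CPM. The treatments left their known marks. CYP26B1, which degrades retinoic acid, and its fellow retinoid genes DHRS3 and STRA6 rose with ATRA at both oxygen levels, with log2 fold changes from 1.47 to 4.13, and the p53 targets CDKN1A and MDM2 rose in all 3 hyperoxia comparisons, by 2.54 to 3.83. Summed epithelial markers moved with oxygen too, from 7221 to 11879 CPM in normoxia down to 3317 to 7001 CPM in hyperoxia, and this held in each treatment. They also moved with ATRA, from 7669 to 8567 CPM with vehicle to 8621 to 11879 CPM in normoxia, and from 3317 to 3495 CPM to 5516 to 7001 CPM in hyperoxia. Markers of fibroblasts and endothelium summed to at most 13.2 CPM and 6.26 CPM in any library, with DCN, VWF and TEK at 0. The blood and immune list rose from between 20.4 and 48.1 CPM in normoxia to between 60.7 and 103 CPM in hyperoxia, mostly through CD68 (17.4 to 103 CPM) and CD14 (0 to 15.3 CPM), with CD3E at 0 and PTPRC at no more than 1 count in any library. With ATRA against vehicle the same list rose from 20.4 to 27.8 CPM up to 37.7 to 48.1 CPM in normoxia, and from 60.7 to 73.1 CPM up to 85.9 to 94.8 CPM in hyperoxia. The platelet list, of which GP9 was at 0, ranged from 0.200 to 22.6 CPM. The part of these shifts in the results below was not tested.

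In cells given vehicle, 4 of the 9 genes were higher in hyperoxia and 0 were lower: SERPINE2, PLAU, TFPI2 and THBS1. For comparison, 8.68% of the 14957 genes tested were called higher and 8.81% lower (edgeR quasi-likelihood test, Benjamini-Hochberg adjusted p under 0.05). The median log2 fold change was 0.34 over the 9 genes and 0.01 over all genes tested. In cells given ATRA, the same 4 genes were higher in hyperoxia and again 0 were lower, against 11.4% and 11.3% of all genes, with medians of 0.41 and 0.01. In untreated cells, SERPINE2, PLAU and TFPI2 were higher and 0 genes lower, beside 7.57% and 7.58% of 15339 genes, and the same count of 3 was reached without the library that stood apart. Fitted on the 4 untreated libraries alone, 0 of the 9 genes were called, with edgeR adjusted p of 0.0791 for SERPINE2, 0.277 for PLAU and 0.0527 for TFPI2. That smaller fit called only 58 genes in all, against 2324 in the fit of 14 libraries. All genes tested had a median log2 fold change of -0.10 in the untreated comparison, against 0.59 for the 9 genes. All 9 genes passed the filter on low counts in both fits, though PLAT and F3 did so with few counts. The plot of normalized counts by library shows each gene in every sample.

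**Figure D1:**
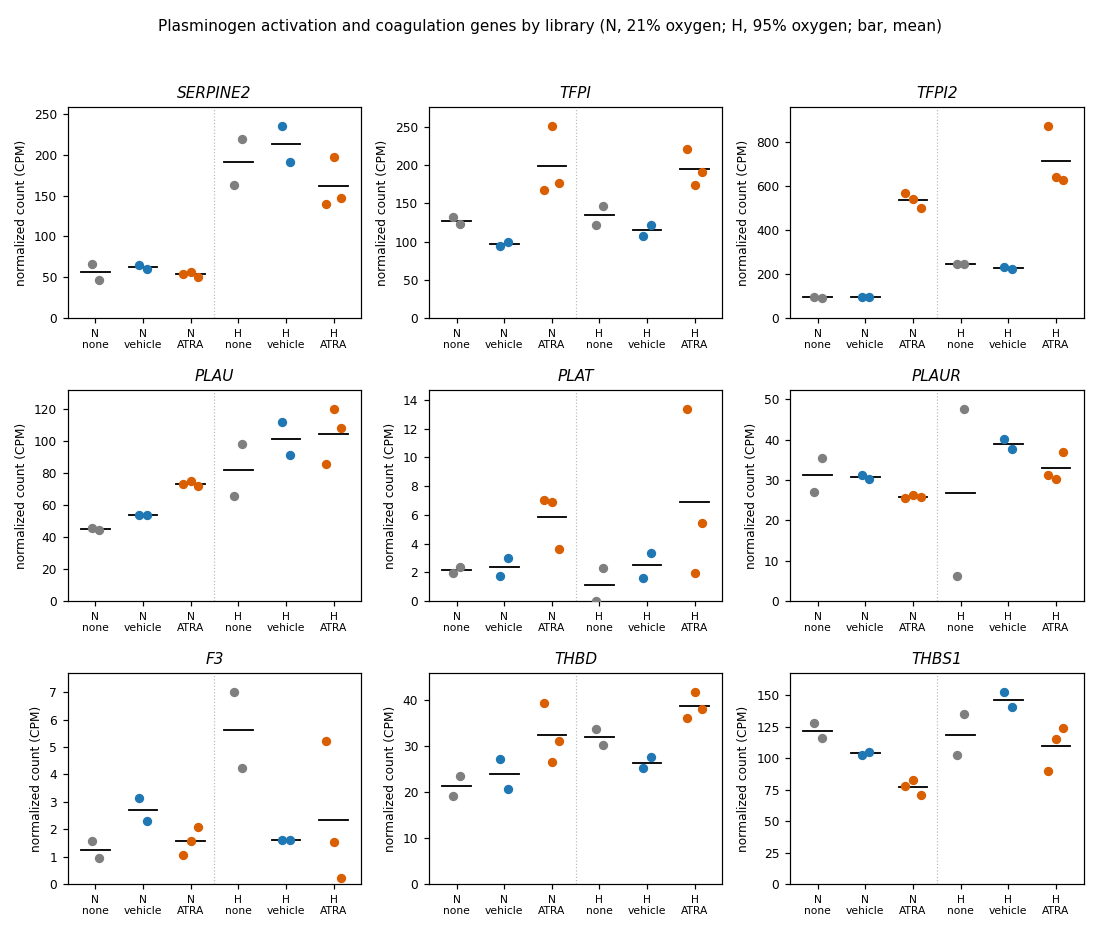
Normalized counts (CPM, vertical axes starting at 0) of the 9 genes in each of the 14 libraries, by oxygen level (N, 21%; H, 95%) and treatment. Each point is a library and each bar a group mean. SERPINE2 was at 46.1 to 66.5 CPM in all 7 normoxia libraries and at 140 to 235 CPM in all 7 hyperoxia libraries, while TFPI2 separated by both oxygen and ATRA.

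PLAU encodes urokinase and lies on chromosome 10 of hg38 from 73908832 to 73917494 on the plus strand, with 11 exons in its canonical transcript. Its level with vehicle was 53.5 CPM and 53.6 CPM in the normoxia libraries and 112 CPM and 91.1 CPM in the hyperoxia libraries. With ATRA it was 73.3, 75.2 and 71.6 CPM in normoxia and 85.8, 120 and 108 CPM in hyperoxia. Untreated cells had 45.8 CPM and 44.1 CPM in normoxia and 65.5 CPM and 98.0 CPM in hyperoxia. Every hyperoxia library lay above every normoxia library of the same treatment, although the spread within hyperoxia was wider. The log2 fold change was 0.92 with vehicle (standard error 0.18, adjusted p = 0.000875 by edgeR), 0.50 with ATRA (standard error 0.15, adjusted p = 0.0150) and 0.85 untreated (standard error 0.21, adjusted p = 0.0123). The ATRA call was lost in edgeR fits without hyperoxia, ATRA replicate 2 (adjusted p = 0.0938), hyperoxia, ATRA replicate 3 (0.0525) or normoxia, ATRA replicate 3 (0.0613), and with all 14 libraries in the fit (0.0610). The untreated call was lost without normoxia, untreated replicate 1 (0.0975) or replicate 2 (0.0947), and without hyperoxia, untreated replicate 2 (0.0750), while without the library that stood apart the log2 fold change was 1.12 (adjusted p = 0.00103).

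The reads counted for PLAU may not all be its own. The long noncoding RNA C10orf55 runs on the other strand, shares 915 exon bases with it in GENCODE 44, and held 28.4% to 46.6% as many counts in each library. The strand setting of the counting is not given in the sources used here, so reads from the overlap cannot be assigned with certainty. C10orf55 itself did not pass the test in any of the comparisons, and its log2 fold change in hyperoxia was 0.92 with vehicle (standard error 0.33, edgeR adjusted p = 0.0618) and 0.54 with ATRA (standard error 0.27, adjusted p = 0.159). ATRA against vehicle gave PLAU a log2 fold change of 0.45 in normoxia (adjusted p = 0.328 by edgeR), where its 3 ATRA libraries all lay above both vehicle libraries, and 0.04 in hyperoxia (adjusted p = 0.951).

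PLAUR, the urokinase receptor, is a membrane-anchored protein that gathers urokinase at the cell surface. The gene spans chromosome 19 from 43646095 to 43670169 on the minus strand. PLAUR stood at 31.3 CPM and 30.3 CPM in normoxia with vehicle and at 40.3 CPM and 37.6 CPM in hyperoxia with vehicle. ATRA libraries had 25.6, 26.2 and 25.8 CPM in normoxia and 31.4, 30.2 and 37.1 CPM in hyperoxia. The groups did not overlap in either treatment, but the log2 fold changes of 0.34 (standard error 0.23, edgeR adjusted p = 0.364) and 0.35 (standard error 0.19, adjusted p = 0.205) did not pass the test. Untreated hyperoxia libraries held 6.19 CPM in replicate 1, the library that stood apart, and 47.6 CPM in replicate 2, against 27.1 CPM and 35.5 CPM in normoxia. The sign of the PLAUR difference in untreated cells depended on that library, with a log2 fold change of -0.25 with it and 0.60 without it (edgeR adjusted p = 0.781 and 0.196).

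PLAT encodes the tissue-type activator, the main activator in the circulation. It lies on chromosome 8 from 42174718 to 42207565. PLAT was close to the limit of detection: the 14 libraries held between 0 and 74 counts. Vehicle libraries had 1.74 CPM and 3.02 CPM in normoxia and 1.59 CPM and 3.35 CPM in hyperoxia. With ATRA they had 7.04, 6.87 and 3.64 CPM in normoxia and 13.3, 1.91 and 5.43 CPM in hyperoxia. ATRA libraries were above vehicle libraries in normoxia and overlapped with them in hyperoxia. The ATRA log2 fold changes of 1.24 (95% interval -0.34 to 2.83, edgeR adjusted p = 0.742) and 1.48 (-0.07 to 3.03, adjusted p = 0.398) did not pass the test, and the intervals were wide. Untreated cells had 1.95 CPM and 2.40 CPM in normoxia and 2.28 CPM in hyperoxia replicate 2, while replicate 1, the library that stood apart, had 0 counts, where 3 counts would have been 0.599 CPM. The PLAT log2 fold change in untreated cells was -1.04 (edgeR adjusted p = 0.602), and 0.07 without that library (adjusted p = 0.986).

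SERPINE2 encodes protease nexin-1, a serpin that inhibits thrombin, urokinase and plasmin. Its gene is on chromosome 2 from 223975045 to 224039286, minus strand, with 9 exons. SERPINE2 had the largest fold change with oxygen among the 9 genes in each of the 3 treatments, apart from F3 in untreated cells. Vehicle libraries rose from 65.0 CPM and 59.4 CPM in normoxia to 235 CPM and 191 CPM in hyperoxia. ATRA libraries had 53.7, 56.8 and 50.2 CPM in normoxia and 140, 197 and 147 CPM in hyperoxia. Untreated libraries had 66.5 CPM and 46.1 CPM in normoxia and 163 CPM and 219 CPM in hyperoxia. No hyperoxia library came near a normoxia library, whatever the treatment. The log2 fold change was 1.78 with vehicle (standard error 0.18, edgeR adjusted p = 2.90e-07), 1.58 with ATRA (standard error 0.15, adjusted p = 8.11e-08) and 1.76 untreated (standard error 0.22, adjusted p = 5.64e-05). With vehicle this was a 3.43-fold difference. SERPINE2 stayed called in all 10 fits that left out 1 library for the first 2 comparisons and in all 14 for the untreated comparison, where the log2 fold change without the library that stood apart was 1.95. With ATRA against vehicle, SERPINE2 was lower by log2 fold changes of -0.21 in normoxia and -0.41 in hyperoxia, neither of which passed the test (edgeR adjusted p = 0.843 and 0.206).

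**Figure D2:**
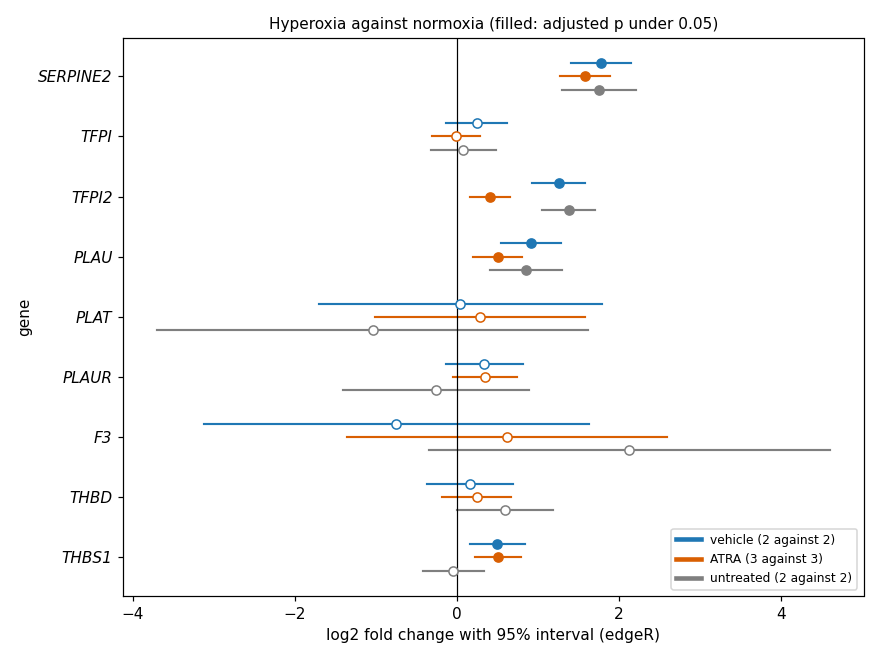
Log2 fold change between hyperoxia and normoxia (horizontal axis) for each of the 9 genes with vehicle, with ATRA and untreated. Lines are 95% intervals from edgeR and filled points have an adjusted p under 0.05. SERPINE2 lies between 1.58 and 1.78 in all 3 treatments, while TFPI2 is at 1.26 and 1.38 without ATRA and at 0.41 with it, and the intervals of PLAT and F3 are wide.

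TFPI and TFPI2 are secreted inhibitors built from Kunitz domains. TFPI blocks factor Xa and the complex of tissue factor with factor VIIa, whereas TFPI2 is a matrix-bound inhibitor of plasmin and other serine proteases. In normoxia, 2 of the 9 genes were higher with ATRA than with vehicle, TFPI and TFPI2, and 0 were lower, against 0.816% of all genes tested called higher and 0.435% called lower. In hyperoxia the same 2 were higher and 0 lower, against 1.52% and 0.695%. The median ATRA log2 fold change over the 9 genes was 0.45 in normoxia and 0.54 in hyperoxia, and that over all genes was 0.00 at both.

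TFPI2 lies on chromosome 7 from 93885396 to 93890753, minus strand, with 5 exons. Vehicle libraries had 96.97 CPM and 94.2 CPM of TFPI2 in normoxia and 232 CPM and 224 CPM in hyperoxia. ATRA libraries had 571, 540 and 502 CPM in normoxia and 874, 642 and 627 CPM in hyperoxia. Untreated libraries were close to the vehicle libraries, at 95.6 CPM and 92.6 CPM in normoxia and 246 CPM and 245 CPM in hyperoxia. The groups formed 4 levels without overlap: normoxia without ATRA, hyperoxia without ATRA, normoxia with ATRA and hyperoxia with ATRA. ATRA raised TFPI2 by a log2 fold change of 2.49 in normoxia (standard error 0.15, edgeR adjusted p = 1.62e-09) and 1.65 in hyperoxia (standard error 0.14, adjusted p = 3.96e-07), which are 5.63-fold and 3.14-fold. Hyperoxia raised it by 1.26 with vehicle (standard error 0.16, edgeR adjusted p = 5.76e-06), by 1.38 untreated (standard error 0.15, adjusted p = 2.45e-05) and by 0.41 with ATRA (standard error 0.12, adjusted p = 0.0164). Without the library that stood apart, the untreated value was 1.37 (adjusted p = 1.18e-05). The call with ATRA was lost without hyperoxia, ATRA replicate 1, the highest library, which gave 0.24 (edgeR adjusted p = 0.124), and without normoxia, ATRA replicate 3, which gave 0.34 (adjusted p = 0.0821). That hyperoxia library also lay apart from the other 9 on the second principal component, at -76.8 against -12.5 to 34.0.

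Whether ATRA acted differently at the oxygen levels was tested by an interaction term. Of the 9 genes, 0 passed the edgeR test, against 0.14% of all genes tested in either direction. An unadjusted p under 0.05 was reached by 1078 of all 14957 genes tested and by 1 of the 9. That gene was TFPI2, whose ATRA log2 fold change was lower in hyperoxia by -0.84 (standard error 0.20, unadjusted p = 0.000321, adjusted p = 0.127). The same difference passed the threshold with DESeq2 (-0.84, adjusted p = 0.00138), with no filter on low counts (adjusted p = 0.00445), with vehicle and untreated libraries pooled (0.0409), and without hyperoxia, ATRA replicate 1 (-1.02, adjusted p = 0.00839). It did not pass with RLE size factors (0.126), with all 14 libraries (0.437) or in the other 9 fits that left out 1 library (0.0745 to 0.578). The estimate was negative in all 10 of those fits, from -1.02 to -0.76.

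TFPI occupies chromosome 2 from 187464230 to 187554435 on the minus strand. Vehicle libraries had 93.8 CPM and 100.03 CPM of TFPI in normoxia and 108 CPM and 122 CPM in hyperoxia. With ATRA these were 168, 251 and 176 CPM in normoxia and 221, 174 and 191 CPM in hyperoxia. All ATRA libraries were above all vehicle libraries at the same oxygen level. ATRA gave TFPI a log2 fold change of 1.03 in normoxia (standard error 0.17, edgeR adjusted p = 0.00145) and 0.77 in hyperoxia (standard error 0.16, adjusted p = 0.0114). The call in normoxia was lost without normoxia, vehicle replicate 1 (edgeR adjusted p = 0.0561), and that in hyperoxia without hyperoxia, vehicle replicate 1 (0.294) or replicate 2 (0.0904) with all 14 libraries in the fit (0.0565) and with pooled controls (0.0541). Untreated cells held 132 CPM and 123 CPM in normoxia, above both vehicle libraries, and 122 CPM and 147 CPM in hyperoxia. TFPI differed little with oxygen, by a log2 fold change of 0.24 with vehicle (95% interval -0.13 to 0.62), -0.01 with ATRA (-0.31 to 0.28) and 0.08 untreated (-0.33 to 0.48), none of which passed the test, and the untreated value was 0.20 without the library that stood apart. The summed epithelial and blood markers moved with ATRA as given above, and their part in the TFPI and TFPI2 results was not tested.

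**Figure D3:**
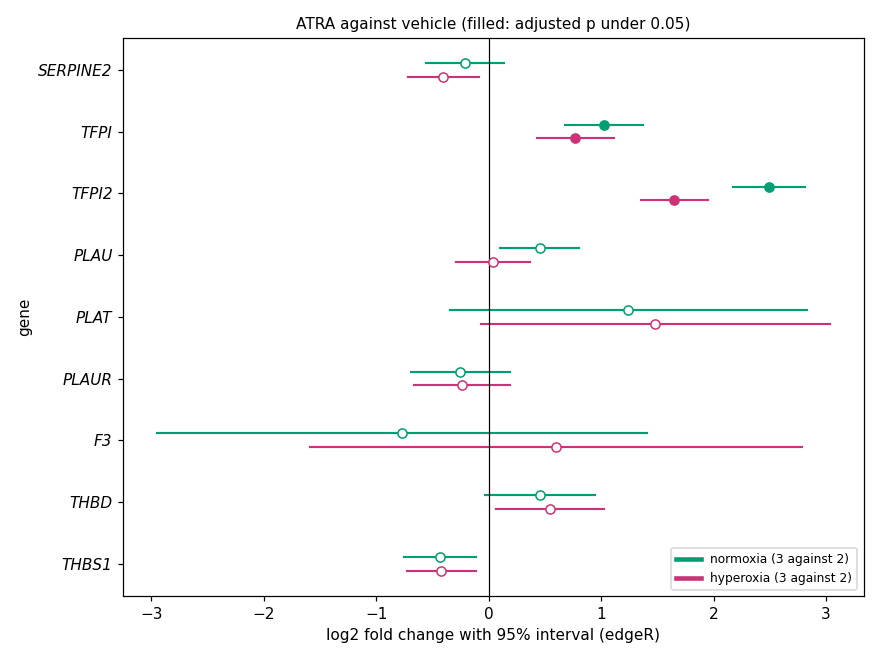
Log2 fold change between ATRA and vehicle (horizontal axis) for each of the 9 genes in normoxia and hyperoxia. Lines are 95% intervals from edgeR and filled points have an adjusted p under 0.05. TFPI2, at 2.49 and 1.65, and TFPI, at 1.03 and 0.77, are the filled points.

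The bases just before the start sites of TFPI and TFPI2 are shown because these are the genes called with ATRA at both oxygen levels. Each is the 250 bases upstream of the RefSeq start (GRCh38.p14), at chr2:187554436-187554685 and chr7:93890754-93891003, both on the minus strand and written in the direction of transcription.
TFPI: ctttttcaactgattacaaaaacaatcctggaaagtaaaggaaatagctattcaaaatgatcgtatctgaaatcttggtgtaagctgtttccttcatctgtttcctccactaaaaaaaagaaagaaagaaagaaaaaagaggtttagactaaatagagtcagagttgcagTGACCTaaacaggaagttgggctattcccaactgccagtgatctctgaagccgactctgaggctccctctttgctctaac
TFPI2: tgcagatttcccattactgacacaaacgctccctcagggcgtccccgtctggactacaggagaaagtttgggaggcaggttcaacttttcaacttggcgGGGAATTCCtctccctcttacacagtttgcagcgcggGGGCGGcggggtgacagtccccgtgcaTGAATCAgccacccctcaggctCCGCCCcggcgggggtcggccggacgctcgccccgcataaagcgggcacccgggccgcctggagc
Capitals mark exact matches on either strand to 6 letter patterns searched in a 300-base window reaching 50 bases past the start: the nuclear receptor core AGGTCA and its second form AGTTCA, the AP-1 site TGANTCA, the GC box GGGCGG, the TATA box TATAAA and the NF-kB site GGGANTTCC. No marked matches overlap. TFPI has a nuclear receptor core on the opposite strand with its first base 80 before the start, a pattern held by 13.8% of all 35116 promoter windows. TFPI2 has no exact match to AGGTCA or AGTTCA, and other variants of the nuclear receptor core were not searched. It has an AP-1 site 87 bases before the start (7.71% of all windows), an NF-kB site 151 bases before it (1.85%) and 2 GC boxes (45% of windows hold at least 1). GC content was 38.4% in the TFPI stretch and 64.4% in the TFPI2 stretch. Windows were found for 7 of the 9 genes, SERPINE2 and PLAU having 2 each, and not for PLAT and THBD. Of the others, SERPINE2 had AGGTCA 91 bases before its inner start, THBS1 had AGTTCA 26 bases after its start, and AP-1 sites lay in the windows of PLAUR and F3.

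F3 encodes tissue factor, the cell-surface trigger of coagulation, on chromosome 1 from 94529173 to 94541759. F3 was scarcely detected, with 1 to 35 counts per library. Vehicle libraries had 3.13 CPM and 2.31 CPM in normoxia and 1.59 CPM in both hyperoxia libraries. ATRA libraries had 1.04, 1.56 and 2.08 CPM in normoxia and 5.23, 1.53 and 0.236 CPM in hyperoxia. Untreated libraries had 1.56 CPM and 0.960 CPM in normoxia and 6.99 CPM and 4.23 CPM in hyperoxia, the higher value in the library that stood apart. None of the F3 differences passed the test, and the log2 fold change with oxygen was -0.75 with vehicle, 0.62 with ATRA and 2.13 untreated, each with a standard error of 0.95 or more (edgeR adjusted p from 0.236 to 0.735). Without the library that stood apart the untreated F3 value was 1.71 (edgeR adjusted p = 0.498).

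THBD encodes thrombomodulin, an endothelial and epithelial receptor for thrombin, and is a gene with a single exon on chromosome 20 from 23045633 to 23049672. THBD stood at 27.1 CPM and 20.8 CPM in normoxia with vehicle and at 25.2 CPM and 27.5 CPM in hyperoxia with vehicle. ATRA libraries had 39.4, 26.5 and 31.2 CPM in normoxia and 36.2, 41.7 and 38.0 CPM in hyperoxia. In hyperoxia all ATRA libraries were above both vehicle libraries, whereas in normoxia the groups overlapped. The ATRA log2 fold changes, 0.46 in normoxia (standard error 0.24, edgeR adjusted p = 0.633) and 0.54 in hyperoxia (standard error 0.23, adjusted p = 0.289), did not pass the test. Untreated cells had 19.1 CPM and 23.5 CPM in normoxia and 33.8 CPM and 30.3 CPM in hyperoxia, a log2 fold change of 0.59 that did not pass either (adjusted p = 0.167) and was 0.51 without the library that stood apart (adjusted p = 0.379).

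THBS1 encodes thrombospondin-1, a matrix glycoprotein that binds plasminogen system proteins and can activate latent TGF-beta. It lies on chromosome 15 from 39581079 to 39599466, plus strand, with 22 exons, and 448 exon bases overlap FSIP1, which held 2.96% as many counts. Vehicle libraries had 103 CPM and 105 CPM of THBS1 in normoxia and 152 CPM and 141 CPM in hyperoxia. ATRA libraries had 78.0, 82.4 and 70.5 CPM in normoxia and 90.0, 115 and 124 CPM in hyperoxia. Hyperoxia libraries were above normoxia libraries in both treatments, and ATRA libraries were below vehicle libraries in normoxia and in hyperoxia. The log2 fold change with oxygen was 0.50 with vehicle (standard error 0.16, edgeR adjusted p = 0.0392) and 0.51 with ATRA (standard error 0.14, adjusted p = 0.0100). The call with vehicle was lost in edgeR fits without any of the 4 vehicle libraries, with adjusted p from 0.149 to 0.296, without normoxia, ATRA replicate 1 (0.0508), with all 14 libraries (0.101), and with vehicle and untreated libraries pooled, where the log2 fold change was 0.23 (0.254). The call with ATRA was lost without hyperoxia, ATRA replicate 3 (0.0667) or normoxia, ATRA replicate 3 (0.0623).

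In untreated cells THBS1 did not pass the test. The libraries had 128 CPM and 116 CPM in normoxia and 103 CPM and 135 CPM in hyperoxia, overlapping, with a log2 fold change of -0.04 (standard error 0.18, edgeR adjusted p = 0.890) that was 0.14 without the library that stood apart. The difference between treated and untreated cells was not tested. THBS1 log2 fold changes with ATRA were -0.43 in normoxia and -0.42 in hyperoxia, and neither passed the test (edgeR adjusted p = 0.282 and 0.172). Vehicle libraries were also set against untreated libraries, and 0 of the 9 genes passed the edgeR test at either oxygen level. Of all 15339 genes, 0% passed in normoxia and 0.00652% in hyperoxia. The labels give a pretreatment time for vehicle libraries and none for untreated ones, so the effect of ethanol alone was not tested. Groups were small, and the hyperoxia untreated group held the library that stood apart, so 0 calls do not show equal levels. The nearest of the 9 to a difference in normoxia was TFPI, with a log2 fold change of -0.39 (unadjusted p = 0.0578), and 0 of the 9 had an unadjusted p under 0.05 at either level. DESeq2 called 0 of the 9 at both levels as well.

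Levels of the 9 genes were compared with each other per transcript length, as CPM per kilobase of the canonical GENCODE 44 transcript. In normoxia with vehicle the order was TFPI2 (43.3 CPM per kilobase), SERPINE2 (27.9), TFPI (25.1), PLAU (22.9), PLAUR (22.5), THBS1 (13.3), THBD (5.92), F3 (1.18) and PLAT (0.776). Among neighbours in that order, only PLAU and PLAUR had overlapping libraries. In hyperoxia with vehicle TFPI2 (103) and SERPINE2 (95.7) overlapped at the top, followed by PLAU (43.3). With ATRA, TFPI2 alone led, at 244 CPM per kilobase in normoxia and 324 in hyperoxia, ahead of TFPI in normoxia (51.4) and of SERPINE2 in hyperoxia (72.6). In bulk RNA, fewer cells making a transcript and less of it per cell cannot be told apart.

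**Figure D4:**
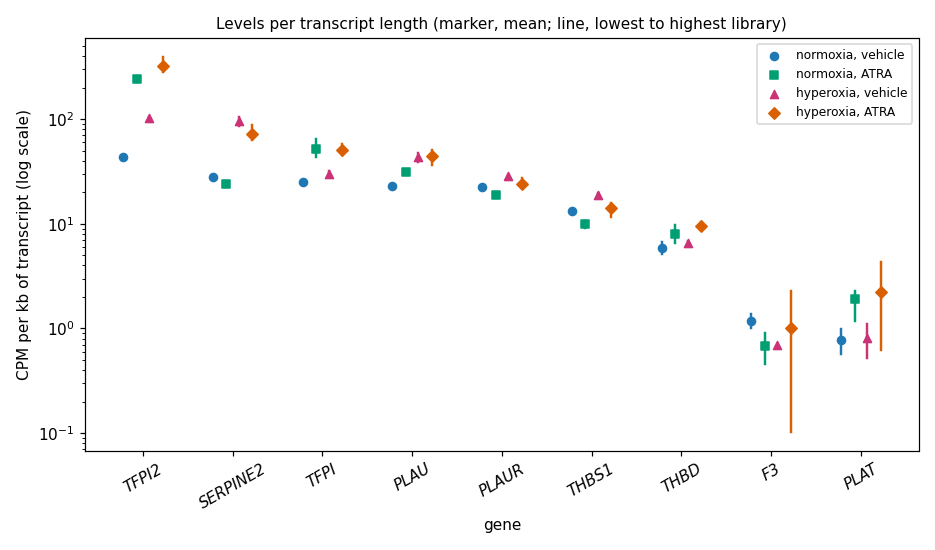
Level per transcript length (CPM per kilobase, log scale) of the 9 genes in the vehicle and ATRA groups. Markers are group means and lines run from the lowest to the highest library. TFPI2 moves from 43.3 in normoxia with vehicle to 324 in hyperoxia with ATRA, and F3 and PLAT lie lowest.

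The genes whose levels ran most alike were found by the Pearson correlation of log2 CPM over the 14 libraries. These span both oxygen levels and all treatments. Group means were not removed, so differences between the groups enter each r. The nearest of 15338 other genes was RMDN2 for SERPINE2 (r = 0.99), TNFAIP3 for PLAU (0.96), PDP2 for PLAUR (0.98), GPRC5A for TFPI2 (0.97), JAK1 for TFPI (0.91), STRA6 for THBD (0.92), DKK1 for THBS1 (0.93), PLSCR4 for PLAT (0.93) and PCSK6 for F3 (0.84). Next in order came ADI1 and SERTAD1 for SERPINE2, TRANK1 and RIN2 for PLAU, LHFPL2 and TGM2 for TFPI2, and TGM2 and ANGPTL4 for THBD. The remaining neighbours were NMRK1 and OXTR for PLAUR, STS and GPC6 for TFPI, ETF1 and NOB1 for THBS1, IQSEC1 and ZDHHC11B for PLAT, and SLC22A5 and NUDT9 for F3. Among the 9 genes themselves, the closest pairs were TFPI with TFPI2 (r = 0.85), THBD with TFPI2 (0.83) and SERPINE2 with PLAU (0.78), while TFPI and THBS1 ran apart (-0.49). Over 13 libraries, without the one that stood apart, PDP2, NMRK1 and OXTR fell to r = 0.86, 0.83 and 0.81 with PLAUR, and to places 39, 112 and 172 in its order. PLAUR with SERPINE2 went from r = 0.07 to 0.72. IQSEC1 and ZDHHC11B with PLAT had 0.84 and 0.85, and PCSK6 with F3 had 0.77, while the nearest gene of SERPINE2, PLAT, TFPI2 and THBS1 was the same.

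Other genes of the pathway were taken from a list of 40 plasminogen and coagulation genes, of which 19 passed the filter in the 10 vehicle and ATRA libraries and 20 in all 14. By the edgeR test in hyperoxia, 0 were higher and 3 lower with vehicle, 2 were higher and 7 lower with ATRA, and 0 were higher and 5 lower untreated. The shares of all genes called higher and lower were the 8.68% and 8.81%, 11.4% and 11.3%, and 7.57% and 7.58% given above. At an unadjusted edgeR p under 0.05, in either direction, these comparisons held 9, 11 and 9 genes of the list. Over all genes the numbers were 4265 and 5107 of 14957, and 4637 of 15339. The median log2 fold change over the tested genes of the list was -0.22, -0.39 and -0.53 in that order, against 0.01, 0.01 and -0.10 over all genes.

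The lower genes were led by the 3 chains of fibrinogen, the substrate of clotting, which are neighbours on chromosome 4. In hyperoxia with vehicle the log2 fold changes were -2.50 for FGA, -3.76 for FGB and -2.68 for FGG (edgeR adjusted p from 6.59e-09 to 2.09e-05). FGB went from 41.7 to 44.2 CPM in normoxia down to 2.65 to 3.53 CPM in hyperoxia with vehicle. In the same order they were -2.54, -4.39 and -2.91 with ATRA and -2.10, -4.60 and -2.37 in untreated cells, all past the edgeR test. With only the 4 untreated libraries in the fit, the calls of the 3 chains were lost (adjusted p = 0.0646, 0.139 and 0.104). The untreated value of FGB ran from -7.08 to -3.51 as 1 hyperoxia library or the other was left out. The library that stood apart held 2 counts of it (0.399 CPM) and the other 15 (4.89 CPM). Without the library that stood apart the chains had -1.90, -3.51 and -2.20, all called. VKORC1L1, an enzyme that recycles vitamin K, was lower with ATRA (-0.75, edgeR adjusted p = 0.00212) and untreated (-1.11, adjusted p = 0.00965), and the untreated call was lost without the library that stood apart (0.0732) or normoxia, untreated replicate 1 (0.0830). The summed epithelial markers were lower in the same comparisons, and their part in these values was not tested. ATRA against vehicle raised FGB in normoxia by a log2 fold change of 1.27 (edgeR adjusted p = 0.00374), a call lost without either normoxia vehicle library (0.108 and 0.0944) and with all 14 libraries (0.359). That was the single call of the list in normoxia, where 0.816% of all genes were called higher and 0.435% lower. With ATRA against vehicle in hyperoxia, 0 genes of the list passed the edgeR test. At an unadjusted p under 0.05 there were 4, against 2019 of all 14957 genes tested.

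Of 24 receptors and cofactors of thrombin, plasmin and thrombospondin, 18 were tested in each fit. In hyperoxia with vehicle 4 were higher and 5 lower, with ATRA 2 were higher and 4 lower, and untreated 4 were higher and 2 lower. The 2 of 18 higher with ATRA were close to the 11.4% of all genes, and the other shares over all genes are those given above. LRP1, the endocytic receptor that clears complexes of activators with their inhibitors, rose in hyperoxia by a log2 fold change of 0.66 with vehicle (edgeR adjusted p = 0.00221), 1.71 with ATRA (adjusted p = 1.32e-09) and 1.15 untreated (adjusted p = 0.000113), the last being 1.32 without the library that stood apart and lost with only the untreated libraries in the fit (0.0980). F2RL2, a receptor of the thrombin receptor family, rose by 1.04, 1.19 and 0.91 (edgeR adjusted p = 0.00555, 0.000305 and 0.0474), and 87 exon bases of it overlap IQGAP2, which held 24.6% as many counts. The F2RL2 call was lost without normoxia, vehicle replicate 2 (0.133) in the vehicle comparison and in 11 of 14 fits that left out a library in the untreated comparison. ANXA2, which binds plasminogen and PLAT at the cell surface, rose by 0.56 with vehicle and 0.48 untreated and was at 0.03 with ATRA (edgeR adjusted p = 0.877), and the vehicle call was lost without hyperoxia, vehicle replicate 1 (0.0595) or normoxia, vehicle replicate 2 (0.0521). The untreated ANXA2 call was lost without either normoxia untreated library (0.0794 and 0.0780). The integrin chain ITGB5 was lower in all 3 comparisons, with log2 fold changes of -0.89, -0.48 and -0.78, the last of which was -0.58 without the library that stood apart (edgeR adjusted p = 0.0291) and lost its call with only the untreated libraries in the fit (0.194). Vitronectin (VTN), a matrix and plasma protein that binds the urokinase receptor, was lower with vehicle (-2.19, edgeR adjusted p = 0.000207) and did not pass the test with ATRA (-0.34, adjusted p = 0.391) or untreated (-0.57, adjusted p = 0.339). LRP8, a lipoprotein receptor of the same family as LRP1, was lower with vehicle (-0.74, edgeR adjusted p = 0.00743) and with ATRA (-0.62, adjusted p = 0.00614), and the vehicle call was lost without hyperoxia, vehicle replicate 2 (0.124) or normoxia, vehicle replicate 2 (0.0689). In untreated cells LRP8 did not pass (-0.40, adjusted p = 0.243) but was called without the library that stood apart (-0.78, adjusted p = 0.0340). ITGAV, the partner of ITGB5, was called higher with vehicle (0.49) and untreated (0.68) and was not with ATRA (0.22, edgeR adjusted p = 0.184). The vehicle call was lost without any of the 4 vehicle libraries and with all 14 libraries (0.0510), and the untreated call without the library that stood apart (0.0550), without normoxia, untreated replicate 2 (0.0643) and with only the untreated libraries (0.182).

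With ATRA against vehicle in hyperoxia, 3 of these receptors and cofactors were higher and 2 lower, and in normoxia 0 were higher and 1 lower. Of all genes tested, 1.52% were called higher and 0.695% lower in hyperoxia, and 0.816% and 0.435% in normoxia. LRP1 rose in hyperoxia by 0.90 (edgeR adjusted p = 0.000283), VTN by 2.23 (adjusted p = 0.000735) and ITGB5 by 0.62 (adjusted p = 0.00687). The epithelial and blood marker sums moved with ATRA too, and their part in these values was not tested. ANXA2 was lower (-0.59, edgeR adjusted p = 0.00308), and enolase ENO1, a cell-surface binder of plasminogen, was lower in hyperoxia (-0.44, adjusted p = 0.0258) and in normoxia (-0.42, adjusted p = 0.0489). The ANXA2 call was lost without hyperoxia, vehicle replicate 1 (0.117), the ITGB5 call without either hyperoxia vehicle library (0.229 and 0.0906), and both ENO1 calls without either vehicle library of the same oxygen level and in several other fits. The VTN call was lost with pooled controls (0.0578). LRP1 was the single gene of either list with a called interaction, against 0.14% of all genes tested. Its ATRA effect was higher in hyperoxia by 1.05 (standard error 0.18, edgeR adjusted p = 0.0145). That call was lost without any of the 4 vehicle libraries (adjusted p from 0.110 to 0.221), with all 14 libraries (0.150) and with pooled controls (0.308).

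**Figure D5:**
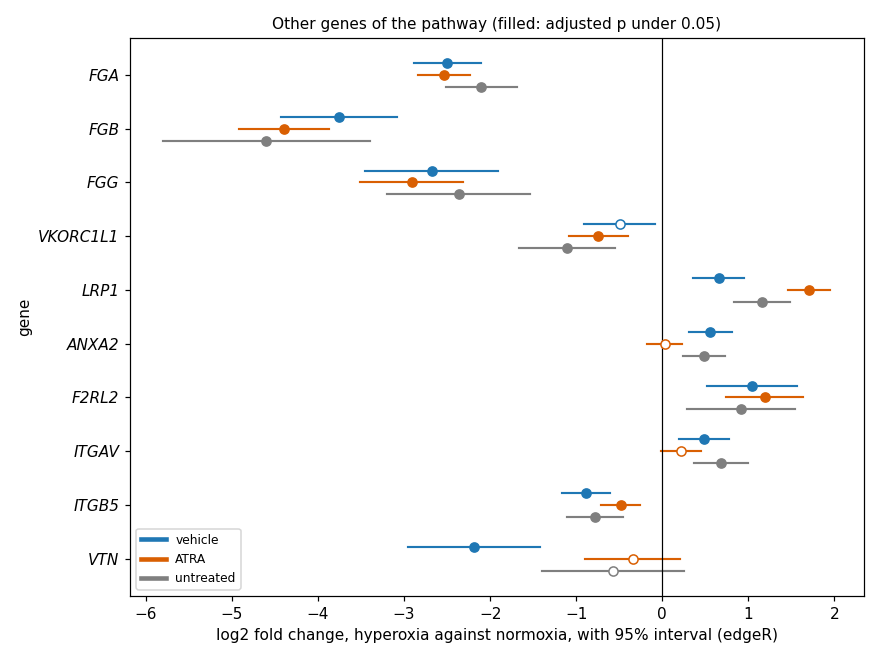
Log2 fold change between hyperoxia and normoxia (horizontal axis) for genes of the pathway outside the 9, with vehicle, with ATRA and untreated. Lines are 95% intervals from edgeR and filled points have an adjusted p under 0.05. The fibrinogen chains FGA, FGB and FGG lie between -4.60 and -2.10, and LRP1 between 0.66 and 1.71, and the untreated FGB value, -4.60, was -3.51 without the library that stood apart.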

How the data were processed

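RNA was sequenced from A549 cells with a stranded kit. Per the labels' processing notes, the authors used Trimmomatic 0.38, HISAT2, HTSeq and DESeq2 with hg38, and deposited raw counts per gene symbol for each of 15 libraries. The annotation release and strand setting of the counting are not given in the sources used here. Rows naming no gene (75.2% to 78.4% of each total) were left out. Counts were analysed with edgeR 4.0.16 (R 4.3.3): filterByExpr (minimum count 10, minimum total 15), TMM normalization and the quasi-likelihood test, with p-values adjusted over every gene in the fit by the Benjamini-Hochberg method. Vehicle and ATRA groups were compared in 1 model of their 10 libraries (4 groups, 14957 genes), and untreated groups in a model of all 14 (6 groups, 15339 genes), whose scaling also gave the CPM values. Log2 CPM for correlations and principal components used a prior count of 2. The alternatives were DESeq2 1.42.0, RLE size factors, no filter, the groups compared alone, all 14 libraries, pooled controls, a block of library sets and leaving out each library. When this left 1 library in a group, it was taken to vary like the others. Replicates differed beyond counting noise (reduced chi-square 3.97 to 31.6).

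Genes named were the 9 members in every comparison, 3 neighbours per member and, for 2 lists of related genes, some of those called, at most 8 per comparison. Not every called gene of the lists is named. The 2 plasminogen and coagulation genes called higher in hyperoxia with ATRA are among those left unnamed. Members, lists and rules were chosen with earlier results of these data known. Alternatives for list genes, correlations over 13 libraries, and C10orf55, FSIP1 and IQGAP2, were chosen after the data were seen. Another gene of the pathway is not reported here. Gene positions and promoters came from RefSeq, and strands, exon numbers, transcript lengths and exon overlaps from GENCODE 44. In simulated data 200 genes were changed and the others had the same mean level in every group. There edgeR recovered 41% of 2-fold and 70% of 4-fold changes for oxygen with vehicle, with 9.02% of its 122 calls false (14957 genes simulated). For ATRA in hyperoxia it recovered 48% and 77%, with 7.41% of its 135 calls false. The real comparisons called other numbers of genes, so these rates need not hold for them. For oxygen in untreated cells it recovered 20% and 41%, with 1.61% of its 62 calls false (15339 genes simulated). DESeq2 had 10.9% of 128 calls false with vehicle and 26.2% of 103 untreated. Figures used Python 3.11.15 and matplotlib 3.10.9.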

Additional observations from a re-analysis of the deposited data

Results flagged for a closer look

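The direction of F3, the tissue factor gene, differed between treatments. Its log2 fold change in hyperoxia was -0.75 with vehicle, where both hyperoxia libraries were below both normoxia libraries, and 2.13 in untreated cells, where both were above. With ATRA it was 0.62 and the libraries overlapped. The counts were between 1 and 35 per library, none of these values passed the edgeR test, and the difference between treatments was not tested.

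Scaled together with the other 14, the library titled as hyperoxia, but with a treatment label naming adipogenic differentiation, held levels above the highest of the 4 normoxia libraries without ATRA for 8 of the 9 genes, TFPI being the exception. SERPINE2 was at 189 CPM, TFPI2 at 274 CPM and PLAU at 93.4 CPM, where the highest such normoxia library had 66.6, 97.2 and 53.7 CPM. PLAUR was at 45.6 CPM against 35.6 CPM. The remaining genes lay only just above: THBS1 at 130.0 against 128.2 CPM and THBD at 30.2 against 27.2 CPM. PLAT was at 3.30 against 3.02 CPM (15 counts) and F3 at 3.53 against 3.13 CPM (16 counts). The share of all genes above that level was not determined. Its labels disagree, so its condition is not known from them.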

How the results depend on the processing

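Over 7 or fewer alternatives and each left-out library, 1213 values of the 9 genes kept their status, called or not. A call was lost in 26, gained in 11, and 0 reversed a called direction. Most of the 1213 belonged to genes not called in the main fit that stayed uncalled. The 26 losses are therefore to be set against the called values alone, which were far fewer. The count of the 9 genes called with oxygen was 3 to 4 over left-out libraries with vehicle, 1 to 4 with ATRA and 2 to 4 untreated, where fitting the groups compared alone gave 0. With ATRA against vehicle it was 1 to 2 at either oxygen level, and in hyperoxia 1 with all 14 libraries or pooled controls. For the interaction it was 0 to 1 over left-out libraries and 1 with DESeq2, no filter, the library set block or pooled controls. Vehicle against untreated in hyperoxia gave 0 to 4, the 4 when only the library that stood apart was left in its group.

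Counts over all genes moved as follows. Oxygen with vehicle called 2616 genes, against 4665 with the groups compared alone, 1420 with 14 libraries and 1386 to 3175 over left-out libraries. Oxygen with ATRA called 3391, 1975 with 14 libraries and 2715 to 3359 over left-out libraries. ATRA in normoxia called 187, against 286 with DESeq2, 300 without a filter, 70 with 14 libraries and 56 to 267 over left-out libraries. ATRA in hyperoxia called 331, against 522 without a filter, 116 with 14 libraries, 182 with pooled controls and 83 to 449 over left-out libraries. The interaction called 21, against 96 with DESeq2, 91 without a filter, 4 with 14 libraries, 5 with pooled controls and 4 to 28 over left-out libraries, and the share of its calls that were higher went from 71.4% to 55.2%, 59.3%, 0% and 20% under the first 4 of these. Untreated oxygen called 2324, against 58 with the groups compared alone, 7364 when the library that stood apart was alone in its group, 1733 without it, and 969 at the lowest. The share called higher was 50% and, with the groups compared alone, 69%. Vehicle against untreated called 0 in normoxia (133 at an unadjusted p under 0.05), 1 with DESeq2 and 3 without a filter, and in hyperoxia 1, against 10 with DESeq2, 89 without a filter, 0 with the groups compared alone and 1 to 5630 over left-out libraries. The share of those hyperoxia calls that were higher was 100%, against 10% with DESeq2 and 48.3% without a filter. The cause of these shifts was not tested.

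The labels number the libraries and give no replicate numbers shared between groups, so no labelled pairs could be fitted. Sets inferred from the library numbers were fitted as a block instead, and this gained the TFPI2 interaction (adjusted p = 0.0338). Deviations of libraries from their group means correlated only weakly within a set (r from -0.05 to 0.20 over 28 pairs from different groups). Between sets, r ran from -0.20 to 0.05 over 53 such pairs. Groups held 2 or 3 libraries, and PLAT and F3 had at most 74 and 35 counts in a library.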
